A study of Mus musculus with 21 samples.

Results

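The regions described here are 2382 peaks of the F-box protein Fbxl19 in mouse embryonic stem (ES) cells that were listed in a clone with high Fbxl19 and not in a clone with low Fbxl19, and that overlapped a peak of Rnf20. They were chosen by position from the 13669 Fbxl19 peaks of the high clone, as those sharing at least 1 bp with any of the 8606 Rnf20 peaks and no base with any of the 2213 peaks of the low clone. They made up 2382 of the 3066 high-clone peaks with Rnf20 and 2382 of the 11908 high-clone peaks absent from the low list. They are called high-only Rnf20 peaks below. The other high-clone peaks were 9526 high-only peaks without Rnf20, 684 peaks of both clones with Rnf20 and 1077 peaks of both clones without Rnf20.

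The series holds 21 chromatin immunoprecipitation and sequencing (ChIP-seq) samples of J1 mouse ES cells and of cells differentiated to day 4. The ES cells were grown in serum with leukemia inhibitory factor. Of the 21 samples, 4 are inputs, titled for ES, knockdown, overexpressing and differentiated cells. None is titled for differentiated knockdown cells. Tagged Fbxl19 was pulled down with streptavidin beads in 2 samples of the OE-high clone, which overexpressed flag-biotin tagged Fbxl19 by more than 5-fold, and in 2 samples of the OE-low clone, whose level stayed under that of the endogenous protein in J1 cells that contain the biotin ligase BirA. Rnf20 was pulled down with the same beads in 1 sample of J1 cells containing BirA. H2Bub1 was precipitated with an antibody in 5 conditions: J1 ES cells (3 samples), Fbxl19 knockdown ES cells (2), the OE-high clone (3), cells differentiated to day 4 (2) and Fbxl19 knockdown cells differentiated to day 4 (2). Each level of Fbxl19 is that of a selected clone, and the labels of OE-high give J1 with no mention of BirA. How Fbxl19 was knocked down and how cells were differentiated is not described in those labels. Fbxl19 and Rnf20 peaks come from ES cells without knockdown. They were mapped in different samples, and Rnf20 was not mapped in the OE-high clone. An overlap is therefore one of positions, and binding of both proteins in the same cells was not tested.

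Through its CXXC zinc finger, Fbxl19 binds CpG-rich DNA that is free of methylation. Rnf20 is the E3 ubiquitin ligase that, with its partner Rnf40, places a single ubiquitin on histone H2B. The product, H2Bub1, is known to lie over the transcribed bodies of active genes and to accompany elongation by RNA polymerase II. The question the series title names is whether Rnf20 reaches CpG islands through Fbxl19 and H2Bub1 is raised there. The rule above used the Fbxl19 and Rnf20 lists only, so H2Bub1 is a readout that did not enter it. The OE-high H2Bub1 list comes from the same clone as the Fbxl19 peaks, and what the clone itself adds to both was not tested.

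What was analysed is a set of 8 lists of mm9 positions, in which all but the Rnf20 list combine replicates. Values per sample were not analysed here, so there was no spread between replicates to set against a difference and no test could be made. Each share has an exact 95% interval after Clopper and Pearson that reflects the count of peaks alone, and neighbouring peaks in 1 domain are not independent. The H2Bub1 lists differed widely in size, with 2937 domains over 57.4 Mb in ES cells, 1813 over 41.9 Mb in knockdown ES cells, 7216 over 246 Mb in OE-high cells, 5125 over 156 Mb in differentiated cells and 1090 over 15.6 Mb in differentiated knockdown cells. The track lines give a number before the letter M, from 36 to 60, whose meaning the headers do not state, and depth per sample is unknown. No gene annotation of mm9 was used here, so regions are named by position, and all printed positions are counted from 1.

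High-only Rnf20 peaks were wide, with the Rnf20 peak close to the Fbxl19 summit. These values belong to the lists that chose the peaks and are given as a description. The median length was 815.5 bp, against 578.5 bp for high-only peaks without Rnf20 and 824.5 bp for peaks of both clones with Rnf20. The authors' first score, which ranks peaks within the list, had a median of 11.2, between 10.2 without Rnf20 and 15.3 in both clones with Rnf20. The summit lay a median of 85 bp from the midpoint of the nearest overlapping Rnf20 peak (middle 50% of peaks, 35 to 181 bp), much as in both-clone peaks with Rnf20, where the median was 79 bp. The median stretch shared with Rnf20 was 401 bp, or 54.8% of the Fbxl19 peak. In all, 2196 of the peaks met 1 Rnf20 peak, 170 met 2 and 16 met 3, and together they met 2566 distinct Rnf20 peaks. The Rnf20 score on them had a median of 75.5, against 66.5 over all Rnf20 peaks and 102 on both-clone peaks.

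At the borders of the rule the sets were small. The smallest stretch shared with Rnf20 was 11 bp, and 19 peaks shared at most 100 bp, of which 10 lay in an ES domain and 15 in an OE-high domain. Just outside, 30 high-only peaks had an Rnf20 peak within 100 bp without overlap, and 10 of these lay in an ES domain and 20 in an OE-high domain. The nearest OE-low peak lay 92 bp away in the closest case, and the median distance was 139544 bp. Of the 29 high-only Rnf20 peaks with an OE-low peak within 500 bp, 12 lay in an ES domain and 17 in an OE-high domain. Both-clone peaks with Rnf20 shared at least 154 bp with the OE-low list. The OE-low list is the shorter one, so a peak absent from it is unlisted there, and weaker binding cannot be told apart from none.

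High-only Rnf20 peaks lay in H2Bub1 domains more often than high-only peaks without Rnf20 in each of the 5 lists. In the OE-high list 1664 of them (69.9%, interval 68.0 to 71.7) overlapped a domain, where 53.9% of all OE-high Fbxl19 peaks did and 49.5% of high-only peaks without Rnf20. The difference from the latter was 20.4 percentage points (interval 18.2 to 22.5). In differentiated cells 1235 of them (51.8%, interval 49.8 to 53.9) were in a domain, beside 37.4% of all OE-high Fbxl19 peaks and 33.7% of those without Rnf20. The ES list held 793 (33.3%, interval 31.4 to 35.2), beside 21.2% of all peaks and 16.9% of high-only peaks without Rnf20, a difference of 16.3 points (interval 14.3 to 18.4). In knockdown ES cells 544 were in a domain (22.8%, interval 21.2 to 24.6), beside 14.5% of all peaks and 11.4% without Rnf20. Differentiated knockdown cells had the fewest, 327 (13.7%, interval 12.4 to 15.2), beside 7.21% of all peaks and 5.14% without Rnf20, a ratio of 2.67 between the 2 high-only sets.

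**Figure D1:**
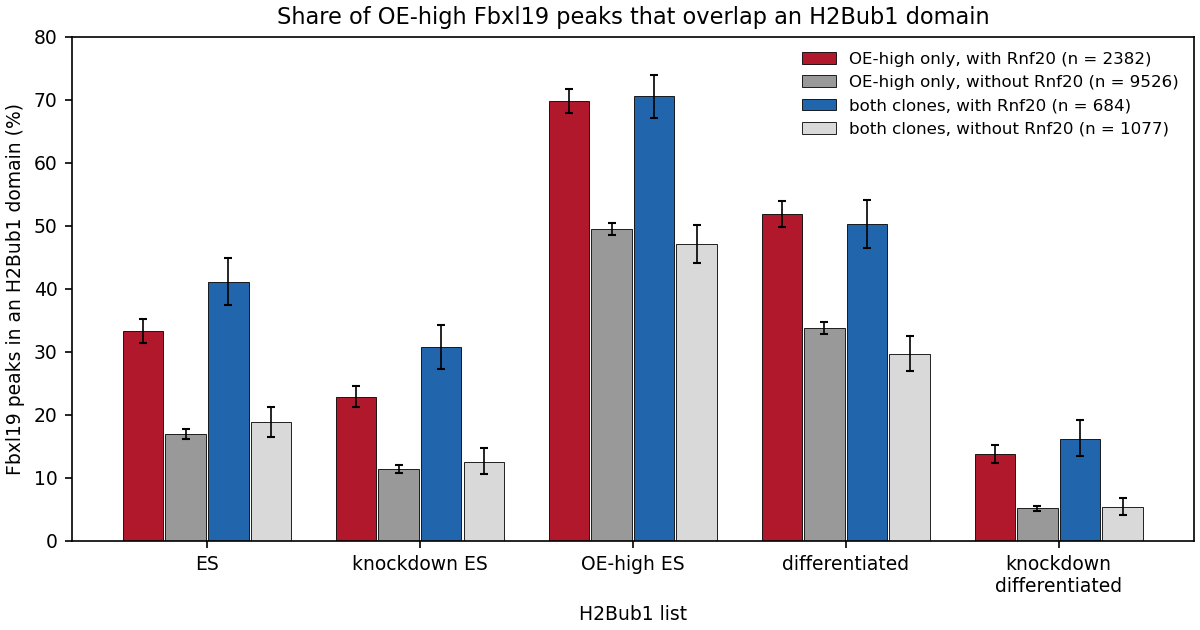
Percentage of OE-high Fbxl19 peaks that overlap an H2Bub1 domain by at least 1 bp, for each of 5 H2Bub1 lists (x axis) and 4 sets of peaks (bars from 0), with exact 95% intervals for counting error as error bars. Both sets with Rnf20 stand above both sets without it in every list, and high-only Rnf20 peaks (red) are at 33.3% against 41.1% for both-clone peaks with Rnf20 (blue) in ES cells and at 69.9% against 70.6% in OE-high cells.

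The order of the 5 lists followed how much each list covers. With every H2Bub1 list limited to its 1090 highest-scoring domains, the size of the shortest, the share of high-only Rnf20 peaks in a domain was 15.95% in ES cells, 14.7% in knockdown ES cells, 15.6% in OE-high cells, 13.6% in differentiated cells and 13.7% in differentiated knockdown cells. The excess over high-only peaks without Rnf20 was then 10.4, 8.49, 7.67, 6.72 and 8.58 percentage points in the same order. With the higher-scoring 50% of each list, the shares were 20.2% in ES, 45.4% in OE-high and 28.8% in differentiated cells. The higher share in the OE-high and differentiated lists was thus seen with the full lists and with this cut. It was not seen among the 1090 strongest domains, whose covered length was not compared. The excess over peaks without Rnf20 was seen in each case.

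Taken over all peak lengths, high-only Rnf20 peaks were less often in a domain than both-clone peaks with Rnf20 in the 2 ES lists. In the other 3 lists the interval of the difference included 0. In the ES list 33.3% of them stood against 41.1% of the 684 both-clone peaks with Rnf20, a difference of -7.79 percentage points (interval -12.0 to -3.60). The knockdown ES list gave -7.86 points (22.8% against 30.7%, interval -11.8 to -4.01). In the OE-high list the difference was -0.757 points (interval -4.64 to 3.26), in differentiated cells 1.55 points (interval -2.76 to 5.87) and in differentiated knockdown cells -2.50 points (interval -5.78 to 0.551). Whether the gap in ES cells exceeds that in OE-high cells was not tested. In the OE-high list the difference was 1.48 points when only the higher-scoring 50% of Fbxl19 peaks were used, and in differentiated cells it was -0.924 points when 50% of the peak had to be covered. That setting gave -2.79 points in differentiated knockdown cells, with an interval that excluded 0 (-5.75 to -0.0861).

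Peak length moved with these shares. In 4 classes of length, bounded at 407, 625 and 922 bp, the OE-high share of high-only Rnf20 peaks was 40.1%, 59.4%, 69.5% and 83.0% from shortest to longest. High-only peaks without Rnf20 had 25.6%, 47.2%, 61.1% and 72.2% in the same classes. In ES cells the values were 22.7%, 22.3%, 27.2% and 45.7% with Rnf20 and 7.70%, 14.1%, 20.5% and 29.3% without. High-only peaks with Rnf20 were thus above those without it in each length class of both lists. Both-clone peaks with Rnf20 had ES shares of 41.7%, 27.7%, 35.7% and 51.8%. In differentiated cells their shares were 27.1%, 41.8%, 52.6% and 56.7% (interval of the last 50.7 to 62.6). High-only Rnf20 peaks there had 24.7%, 41.2%, 48.8% and 66.2% (interval of the last 63.1 to 69.2), so they were higher in the longest class only. Weighting the high-only peaks without Rnf20 to the 4 length classes of those with it was an alternative chosen after seeing the data. It brought the difference from 20.4 to 10.8 points in OE-high cells. In differentiated cells the difference went from 18.1 to 9.63 points and in ES cells from 16.3 to 11.9. Length was not matched within a class, and the longest class has no upper bound. Weighting by class of first score left these differences at 19.7, 17.2 and 15.9 points.

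**Figure D2:**
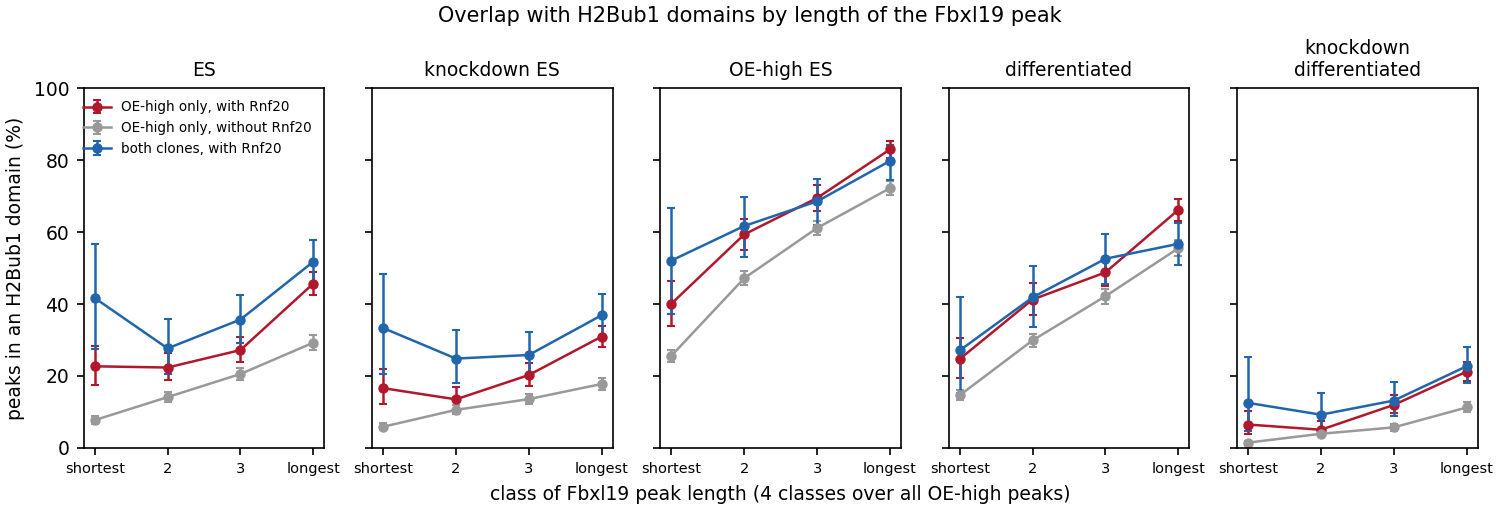
Percentage of Fbxl19 peaks in an H2Bub1 domain (y axis) by length class of the Fbxl19 peak (x axis, 4 classes over all OE-high peaks), 1 panel per H2Bub1 list, with exact 95% intervals. High-only peaks with Rnf20 (red) lie above those without (grey) in each class, and the red points go from 40.1% in the shortest to 83.0% in the longest class in OE-high cells.

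Across the 5 lists, 27 combinations were seen among high-only Rnf20 peaks. The 5 most frequent covered 1838 of them, or 77.2%, and the same 5 covered 83.8% of all OE-high Fbxl19 peaks and 86.0% of high-only peaks without Rnf20. Peaks in no list were the largest group, 620 (26.0%, interval 24.3 to 27.8), beside 42.4% of all OE-high Fbxl19 peaks and 47.0% of high-only peaks without Rnf20. Next were 491 peaks in the OE-high and differentiated lists only, 20.6% beside 17.3% of all peaks. In the OE-high list alone were 324 (13.6%, interval 12.2 to 15.0), beside 14.3% of all peaks, which is close to that background. In all 5 lists were 187 (7.85%, interval 6.80 to 9.004), beside 4.05% of all peaks and 2.78% of high-only peaks without Rnf20. Of the 1762 peaks in any list, 1664 (94.4%) were in the OE-high list, beside 93.5% over all OE-high Fbxl19 peaks in any list, which is close to that background.

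**Figure D3:**
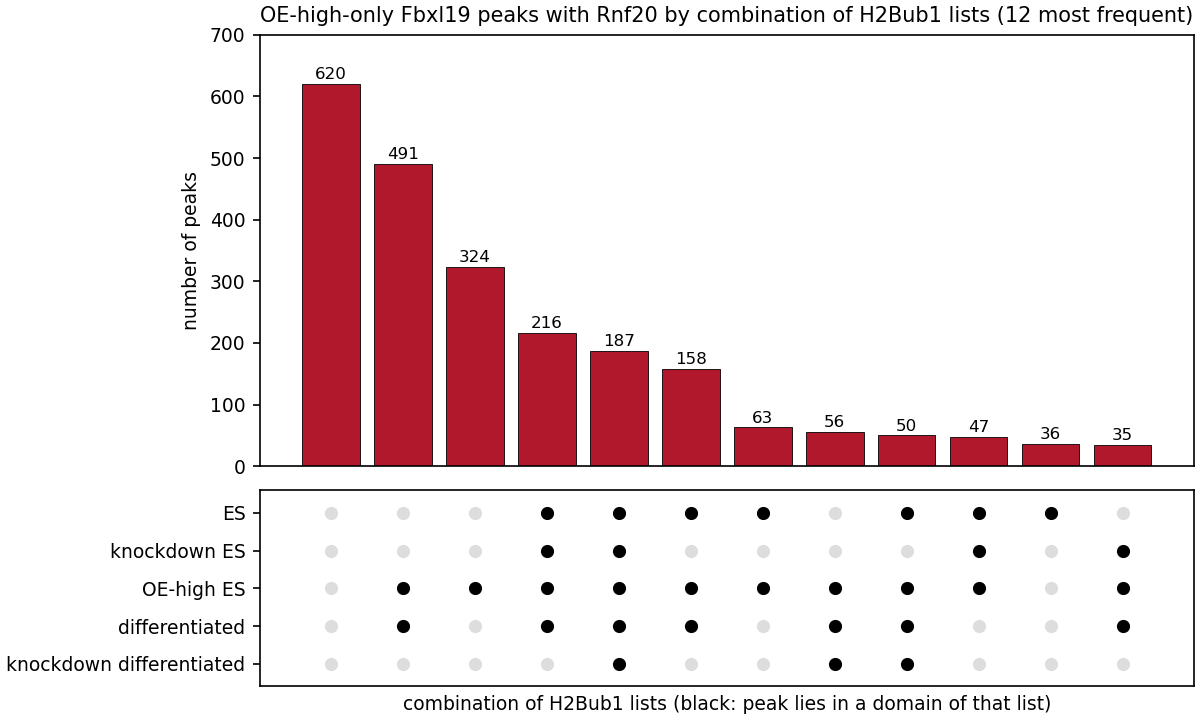
Number of high-only Rnf20 peaks (y axis, bars from 0) in each of the 12 most frequent combinations of H2Bub1 lists, with black dots for the lists that hold the peaks. The 620 peaks in no list come first, followed by 491 in the OE-high and differentiated lists and 324 in the OE-high list alone.

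With Fbxl19 overexpressed or on differentiation, many high-only Rnf20 peaks that had no ES domain lay in a domain. Of the 1589 peaks outside ES domains, 937 (59.0%, interval 56.5 to 61.4) were in an OE-high domain, beside 43.8% of all OE-high Fbxl19 peaks outside ES domains. High-only peaks without Rnf20 had 40.8% and both-clone peaks with Rnf20 57.6%. By length class the high-only Rnf20 peaks had 32.5%, 50.5%, 61.2% and 72.6%, and those without Rnf20 21.3%, 39.8%, 52.7% and 62.6%. In differentiated cells 618 of the 1589 (38.9%, interval 36.5 to 41.3) were in a domain, beside 26.7% of all such peaks and 24.6% of those without Rnf20. Of the 793 peaks in ES domains, 727 (91.7%) were in an OE-high domain as well and 617 (77.8%) in a differentiated domain, beside 91.4% and 77.3% of all Fbxl19 peaks in ES domains, so these shares were at the background. Of the 1235 peaks in a differentiated domain, 1202 (97.3%, interval 96.3 to 98.2) were in an OE-high domain, beside 95.7% of all OE-high Fbxl19 peaks in differentiated domains. The comparisons share the ES list, and the larger OE-high and differentiated lists cover more of the genome.

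Most high-only Rnf20 peaks of ES domains were in a domain of the knockdown ES list as well, and most of those of differentiated domains were in none of the differentiated knockdown list. Of the 793 peaks in an ES domain, 480 (60.5%, interval 57.0 to 64.0) were in a knockdown ES domain, beside 57.5% of all Fbxl19 peaks in ES domains, 54.3% of high-only peaks without Rnf20 and 66.5% of both-clone peaks with Rnf20. Of the 1235 peaks in a differentiated domain, 932 (75.5%, interval 73.0 to 77.8) were in no differentiated knockdown domain, beside 82.0% of all such peaks, 85.4% of high-only peaks without Rnf20 (interval 84.1 to 86.6) and 72.7% of both-clone peaks with Rnf20. The other 303 (24.5%) were in a domain of both lists. By length, 30.3% of the longest peaks with Rnf20 and 19.8% of those without were in both, and in the second length class the values were 11.7% and 12.4%. The knockdown lists are the 2 shortest of the 5, and whether list size sets the low share in differentiated knockdown cells was not tested.

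Where a high-only Rnf20 peak lay in a domain of both lists, domain length at the peak was about equal in ES and knockdown ES cells and shorter in differentiated knockdown than in differentiated cells. At the 480 peaks in both ES lists, the median ratio of knockdown to ES length was 1.01 (middle 50%, 0.894 to 1.25), and 259 (54.0%) had the longer domain in the knockdown. At the 303 peaks in both differentiated lists the medians were 27800 bp and 9400 bp, the median ratio was 0.523, and 15 peaks (4.95%) had the longer domain in the knockdown. At the 727 peaks in ES and OE-high domains the medians were 18200 and 34600 bp, with a median ratio of 1.26 and a longer OE-high domain at 492 (67.7%). High-only peaks without Rnf20 gave ratios of 1.01, 0.479 and 1.37 for the same pairs of lists. Their domain was longer in knockdown ES, differentiated knockdown and OE-high cells at 53.1%, 4.69% and 67.1%. The shares at high-only Rnf20 peaks were close to these. Both-clone peaks with Rnf20 had 50.8%, 11.7% and 59.8%.

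Many high-only Rnf20 summits sat at the end of an H2Bub1 domain. For OE-high domains 841 summits (35.3%, interval 33.4 to 37.3) were within 1 kb of an end, beside 27.5% of all OE-high Fbxl19 summits, 26.0% of high-only peaks without Rnf20 and 29.8% of both-clone peaks with Rnf20. In differentiated cells 769 (32.3%) were that close, beside 23.0% of all summits. In ES cells there were 458 (19.2%) beside 11.7%, in knockdown ES cells 302 (12.7%) beside 7.40%, and in differentiated knockdown cells 268 (11.3%) beside 5.91%. Among peaks that overlapped a domain, the share near an end with and without Rnf20 was 48.0% against 48.9% in OE-high cells, 55.9% against 53.3% in ES cells, 59.7% against 58.2% in differentiated cells and 79.8% against 77.3% in differentiated knockdown cells. The gap was widest in the knockdown ES list, with 53.7% (interval 49.4 to 57.9) against 46.6% (interval 43.6 to 49.6). Both-clone peaks with Rnf20 were near an end less often, at 40.2% in OE-high and 46.3% in ES cells. In differentiated domains 65.9% of the overlapping high-only Rnf20 peaks had the summit inside, against 71.7% of those without Rnf20.

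**Figure D4:**
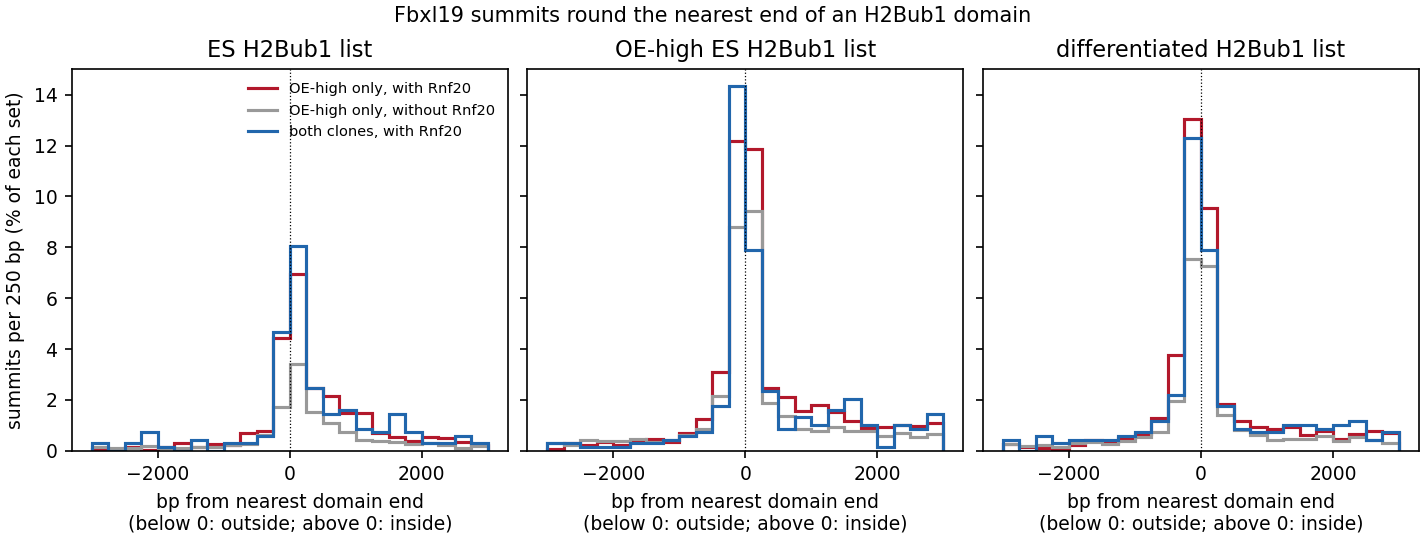
Fbxl19 summits per 250 bp (y axis, percentage of each set) by distance from the nearest domain end (x axis, below 0 outside and above 0 inside the domain) in 3 H2Bub1 lists. In each panel the tallest bars lie next to the end, and high-only peaks with Rnf20 (red) have 458 summits within 1 kb of an end in ES cells, 841 in OE-high cells and 769 in differentiated cells.

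Summits near an end were mostly inside the domain in ES cells and mostly outside in differentiated cells. Of the 458 summits within 1 kb of an ES end, 310 (67.7%) were inside the domain, beside 69.2% over all OE-high Fbxl19 peaks near an ES end. In OE-high cells 427 of 841 (50.8%) were inside, beside 50.8% of all, so both lists were at the background. In differentiated cells 318 of 769 (41.4%, interval 37.8 to 44.9) were inside, beside 45.9% of all and 48.3% of high-only peaks without Rnf20 (interval 46.1 to 50.5). Left and right ends were about equally used, with 224 and 234 summits in ES cells and 444 and 397 in OE-high cells. The side of the end was nearly always the same from list to list, here as for all OE-high Fbxl19 peaks. Of the 304 summits near an end in both ES and OE-high cells, 302 had it on the same side, as did 307 of 307 in ES and differentiated cells and 185 of 185 in differentiated and differentiated knockdown cells. Over all OE-high Fbxl19 peaks the same pairs of lists gave 1091 of 1094, 1100 of 1101 and 564 of 566. At these shared ends the domain was longer in OE-high than in ES cells at 223 of 302 peaks (73.8%), beside 75.5% over all OE-high Fbxl19 peaks, with medians of 26500 and 10200 bp. It was longer in differentiated knockdown than in differentiated cells at 11 of 185 (5.95%), beside 5.85% over all, with medians of 8400 and 23800 bp.

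A peak at 62800922 to 62802449 on chromosome 10, rank 9 of the high-only Rnf20 peaks by first score, shows such a shared end. The summit lay within 1 kb of the right end of a domain in 4 lists, and 6 bp inside it in the ES, OE-high and differentiated knockdown lists. The domain ran from 62778000 to 62801799 in ES cells (23800 bp), from 62704400 in OE-high cells (97400 bp), from 62706600 to 62801599 in differentiated cells (95000 bp) and from 62798200 in differentiated knockdown cells (3600 bp). No knockdown ES domain overlapped it. In the same class, in ES and OE-high but not knockdown ES domains, a peak at 20692226 to 20693054 on chromosome 9 lay at the left end of an ES domain of 65200 bp that began at 20692600, as did OE-high and differentiated domains of 10400 bp each. The third of the class by score, at 96212271 to 96212857 on chromosome 16, lay inside an ES domain of 4800 bp and an OE-high domain of 103000 bp. The class held 273 peaks (11.5%), beside 7.86% of all OE-high Fbxl19 peaks.

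Of the peaks in all 5 lists, chromosome 8 held the highest first score (69010166 to 69010686, 26.4), then chromosome 1 (55143967 to 55145473, 26.0) and chromosome 2 (126701624 to 126702255, 25.2). At the peak on chromosome 2, the domain ended at 126702199 in both ES lists and at 126701999 in the other 3. It spanned 18600 bp in ES, 13200 bp in knockdown ES, 82200 bp in OE-high, 26400 bp in differentiated and 18600 bp in differentiated knockdown cells. The peak on chromosome 1 lay 3355 bp or more inside the domain in all 5 lists.

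The 2 highest first scores of all high-only Rnf20 peaks fell in the OE-high list alone. They were a peak of 3041 bp at 5844173 to 5847213 on chromosome 19, with a score of 121, 3 Rnf20 peaks and an OE-high domain of 80200 bp, and a peak at 76915024 to 76916105 on chromosome 14, with a score of 54.4 and a domain of 145600 bp. The second had an OE-low peak 1159 bp away. The next of that class, at 141120661 to 141122108 on chromosome 4 (score 33.0), lay in a domain of 155800 bp. The summits of all 3 were 29654 bp or more from the nearest OE-high domain end. In the OE-high and differentiated lists only, a peak on chromosome 3 led (129763063 to 129764072, score 46.8), followed by a pair on chromosome 12 at 77469770 to 77472537 (27.5) and 52448790 to 52449630 (24.5). The first and the last of these lay within 447 bp of an end in both lists.

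Among peaks in no H2Bub1 list chromosome 3 held the leading score (34656504 to 34657623, 44.1), then chromosome 5 (116739822 to 116740412, 34.6) and chromosome 11 (109334270 to 109335823, 32.9). With positions outside a domain written below 0, the first lay at -79960 bp from the nearest ES domain end, and it had an OE-low peak 2513 bp away. The summit of the last lay at -571 bp from an OE-high domain that the peak did not touch. A high Fbxl19 score was therefore found with and without H2Bub1. By class of first score, the share in no list was 24.6%, 29.4%, 26.2% and 24.4% from lowest to highest, and the ES share was 35.0%, 28.9%, 33.0% and 35.6%.

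A knockdown domain without the matching control domain was rare, at 87 peaks (3.65%) beside 2.77% of all OE-high Fbxl19 peaks. By score, chromosome 11 had the first (97522836 to 97524181) and the third (116297936 to 116298667) of these and chromosome 17 the second (66131754 to 66133277). At the first, the knockdown ES domain ran from 97519800 to 97566999, and the summit lay at -538 bp from the nearest ES domain end. At 116297936 the knockdown ES and differentiated domains had the same bounds, 116295600 to 116302799.

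High-only Rnf20 peaks with a stronger Rnf20 peak, or with several, were more often in an H2Bub1 domain. In 4 classes of equal size by Rnf20 score, the ES share was 26.7%, 27.9%, 32.8% and 45.8% (interval 41.8 to 49.9) from lowest to highest. The OE-high share was 66.6%, 66.9%, 69.9% and 76.0%, and the differentiated knockdown share 9.40%, 8.74%, 13.3% and 23.5%. Peak length was greater in the highest class, with a median of 973 bp against 737 bp in the lowest. Within the longest length class 37.8% of peaks in the lowest Rnf20 class and 54.7% in the highest were in an ES domain, and within the shortest it was 8.22% of 73 peaks and 51.4% of 37. Between these, the lowest and highest Rnf20 classes had 17.7% and 34.8% in the second length class and 28.7% and 32.0% in the third, where the 4 Rnf20 classes were not in order of score. For the OE-high list the values were 80.1% and 85.9% among the longest peaks and 72.4% and 73.5% in the third class, so the order by Rnf20 score was not seen to the same extent at each length. The 186 peaks with 2 or 3 Rnf20 peaks lay in an ES domain in 64.0% of cases (interval 56.6 to 70.9) and in an OE-high domain in 90.9%, against 30.7% and 68.1% of those with 1. Their median length was 1357 bp against 779.5 bp. In the longest length class alone the ES shares were 67.8% and 41.8%, and the OE-high shares 95.2% and 80.8%. In the third class they were 48.4% and 26.1% in ES cells, and 80.6% and 68.9% in OE-high cells. The second class had 9 peaks that met several. The shares there were 55.6% and 21.7% in ES cells, and 55.6% and 59.4% in OE-high cells.

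Summits farther from the Rnf20 midpoint were more often in a domain. The ES share was 26.9% at up to 50 bp, 30.3% over 50 and up to 100 bp, 35.4% over 100 and up to 250 bp and 46.2% over 250 bp. Median peak length was 671 bp in the nearest and 1153 bp in the farthest class, and the part of length in this was not tested.

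The excess over peaks without Rnf20 was found on every autosome, though levels varied. High-only Rnf20 peaks had the higher share on 19 of 19 autosomes in each of the 5 lists. The smallest difference was 1.21 percentage points, in the knockdown ES list on chromosome 10, which held 112 of them. Intervals for single chromosomes were not computed, and chromosome 16 held 46 of them. In OE-high cells the difference ranged from 3.43 percentage points on chromosome 6 to 32.2 on chromosome 1, around a median of 21.4. In ES cells the share of high-only Rnf20 peaks in a domain ranged from 17.9% on chromosome 8 to 58.8% on chromosome 1, and chromosome 11 had 53.4%. The set itself was uneven, with 279 peaks on chromosome 8, or 42.9% of high-only peaks there, and 68 on chromosome 1, or 6.10%. Rnf20 peaks per OE-high Fbxl19 peak were 1.27 on chromosome 8 and 0.272 on chromosome 1, and come from a single library. In the knockdown ES list chromosome 1 again had 58.8% and chromosome 11 49.0%, and the lowest share was 10.7% on chromosome 10. Whether copy number or mapping differs between chromosomes in these cells was not analysed here.

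**Figure D5:**
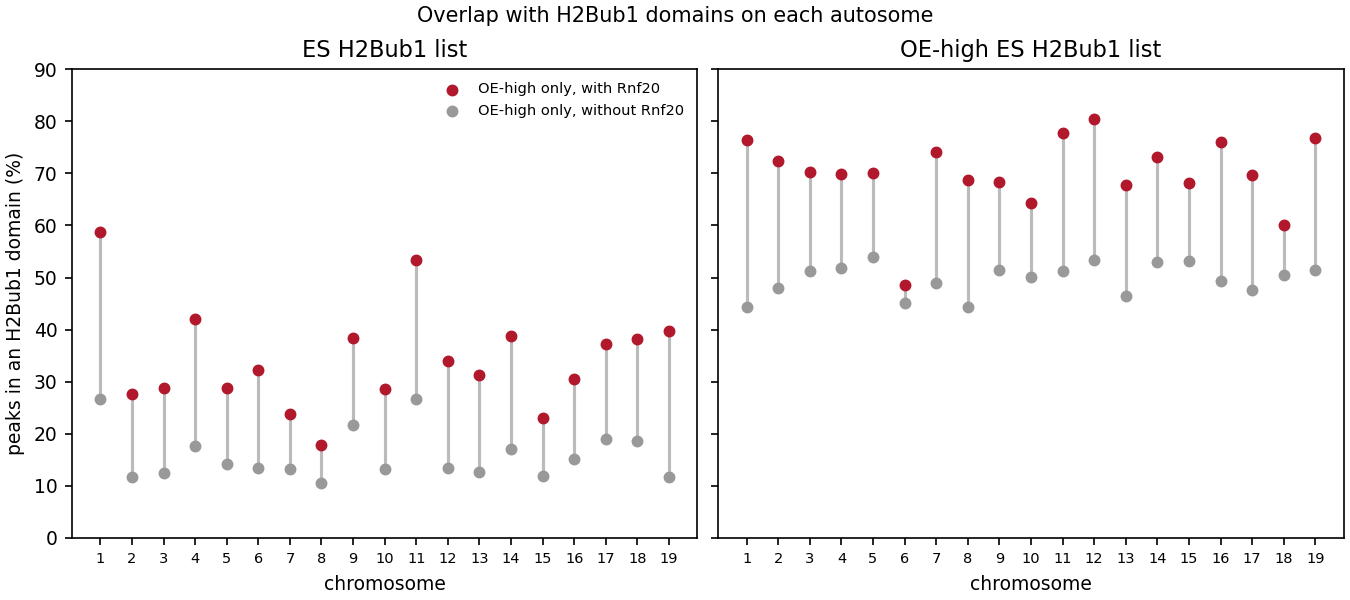
Percentage of high-only Fbxl19 peaks in an H2Bub1 domain (y axis) on each autosome (x axis) for peaks with Rnf20 (red) and without (grey), in the ES list and the OE-high list. Red lies above grey on 19 of 19 autosomes in both panels, by 3.43 points on chromosome 6 in the OE-high list and by 32.1 points on chromosome 1 in the ES list.

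Most domains that held a high-only Rnf20 peak held only 1. Among OE-high domains 1451 (20.1% of the list) held at least 1, of which 1281 held 1, 140 held 2 and 30 held more. In the ES list 666 domains (22.7%) did, 578 of them with 1. Counted per domain, the median length was 15500 bp in ES cells against 9800 bp for domains with other OE-high Fbxl19 peaks only and 3800 bp for domains with none. In OE-high cells these medians were 32600, 24000 and 13800 bp. A longer domain has more room for peaks, and a domain with both kinds counts in the first group. Counted per peak, the excess was not seen. The median ES domain was 19800 bp at high-only Rnf20 peaks and 20800 bp at high-only peaks without Rnf20. At both-clone peaks it was 21400 bp with Rnf20 and 29200 bp without. The OE-high medians were 34900, 35000, 31800 and 36400 bp in the same order. The most crowded ES domain, at 47687000 to 47728399 on chromosome 6 (score 27.0), held 8 of them among 13 OE-high peaks. It had a counterpart in the knockdown ES and differentiated knockdown lists and none in the OE-high or differentiated lists. Its 8 peaks made up all but 1 of the 9 peaks with that combination of lists, so that combination rests on 1 place. In the OE-high list the most crowded domain, at 87179800 to 87227999 on chromosome 8, held 6 of them among 8 OE-high peaks, with counterparts in both differentiated lists and in neither ES list.

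Differentiated domains with a high-only Rnf20 peak overlapped a domain of the knockdown list more often than other differentiated domains, while in ES cells the comparison with domains holding other Fbxl19 peaks varied with domain length. In differentiated cells 315 of 1104 such domains (28.5%, interval 25.9 to 31.3) overlapped a differentiated knockdown domain, beside 18.9% of all differentiated domains. Domains with other OE-high peaks only had 19.2% (interval 17.7 to 20.8) and domains with none 10.7%. By domain length the shares with a high-only Rnf20 peak were 22.7% up to 5 kb, 24.3% to 10 kb, 26.3% to 20 kb, 32.6% to 40 kb and 29.4% above. Domains with other peaks only had 9.96%, 14.7%, 18.2%, 22.5% and 23.8% in the same classes. In ES cells 418 of 666 (62.8%, interval 59.0 to 66.4) overlapped a knockdown ES domain, beside 52.2% of all ES domains, 56.4% of those with other peaks only (interval 53.5 to 59.2) and 40.7% of those with none. By length the order of the first 2 changed, with 52.7% against 54.6% from 5 to 10 kb and 74.1% against 65.5% above 40 kb.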

How the data were processed

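The deposited files are lists of positions on mm9. BWA 0.5.9-r16 and MACS appear in the submitters' processing notes without a role. Per the file headers, the H2Bub1 domains come from BCP output, and Rnf20 peaks are named after MACS. Each domain has the authors' deposited score and length. The Fbxl19 lists have 2 deposited scores per peak and the Rnf20 list 1, of formulas not given in the sources used here. For 1 of the 3 OE-high H2Bub1 samples the labels name no list, and the labels of the OE-high Fbxl19 samples name the clone's H2Bub1 list, so the Fbxl19 list was assigned by its own name.

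Fbxl19 positions were read as counted from 1 and the others as counted from 0, and the latter were converted to count from 1. Peaks were shared at 1 bp or more. Shares have exact Clopper-Pearson 95% intervals, and differences add the 2 intervals in squares. For each class of H2Bub1 lists the 3 peaks with the highest first score were named, leaving out unplaced contigs, plus the domain with most peaks in the ES and OE-high lists. The regions, classes and comparisons were chosen with earlier results of these data known. Code was tested on simulated data with 4000 peaks and recovered 825 of 825 planted ones. Python 3.11.15, NumPy 2.4.6, SciPy 1.17.1 and matplotlib 3.10.9 were used.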

Additional observations from a re-analysis of the deposited data

How the results depend on the processing

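Of 204 values under 14 other settings, 148 stayed within the interval of the reported value (for a count, within 1.5 times), 56 moved further and 0 changed the sign of a difference whose interval excluded 0. With the reported values counted in, all 65 differences from high-only peaks without Rnf20 were above 0. Counted in the same way, all 26 differences from both-clone peaks with Rnf20 in the 2 ES lists were below 0. The settings that changed only the distance from an end gave no differences. Values below are in the order ES, knockdown ES, OE-high, differentiated and differentiated knockdown, and causes were not tested. With 50% of the peak covered, the shares were 29.6%, 20.7%, 59.4%, 40.6% and 9.78%, the excess over peaks without Rnf20 was 14.2, 17.7, 13.8 and 5.97 points (knockdown ES moved less), and 32.7% were in no list. The interval of the difference from both-clone peaks in differentiated knockdown cells excluded 0 in that setting (-2.79 points) and included it in the reported value. With the summit inside the domain, chosen after seeing the data, shares were 27.7%, 19.4%, 54.4%, 34.3% and 8.31%, the excess 13.0, 9.33, 15.5, 10.05 and 4.98 points, 35.3% were in no list and 15.6% in OE-high alone. With the top 50% of each H2Bub1 list, shares were 20.2%, 12.7%, 45.4%, 28.8% and 6.93%, the excess 12.5, 7.49, 12.1 and 4.41 points (OE-high moved less), 47.0% were in no list and 23.2% within 1 kb of an OE-high end. With H2Bub1 lists of the same size, shares were 15.95%, 14.7%, 15.6% and 13.6%, the excess 10.4, 8.49, 7.67 and 6.72 points, and the difference from both-clone peaks in differentiated cells -2.81 points. In that setting 67.9% were in no list, 2.69% in OE-high alone and 9.11% within 1 kb of an OE-high end. With comparison peaks weighted by length class, also added after seeing the data, the excess was 11.9, 8.98, 10.8, 9.63 and 6.58 points. A gap of up to 1 kb gave 72.3% in OE-high and 24.1% in no list, leaving out chromosome 8 gave 35.3% in ES, and the share near OE-high ends was 29.6% at 500 bp and 42.0% at 2 kb. The top 50% of Fbxl19 peaks by score left 1340 high-only Rnf20 peaks. No paired analysis was possible because the lists pool replicates, and no replicate could be left out for the same reason. Depth per sample is unknown, so a region outside a list cannot be told apart from one with too few reads.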
